A study of Rattus norvegicus with 4 samples.

Results

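The genes described here belong to a pair of peptide hormone systems, the angiotensin system and the family of receptors built on the calcitonin receptor-like receptor. The 9 genes were Agt, Ace, Agtr1a, Agtr1b and Agtr2 of the angiotensin system and Calcrl, Ramp1, Ramp2 and Ramp3 of the calcitonin family. They were taken as every probe set whose platform annotation named 1 of these genes and no other, which gave 13 probe sets among 31099, and 9 of the 14217 genes measured. The families were chosen on the signals of Agtr1a and Ramp3, which an earlier look at the same arrays had shown to differ widely between tumours, so differences of the members are described and were not tested.

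The samples were 4 mammary cancers, called tumours 1 to 4, each hybridised to 1 oligonucleotide array of 1 colour. The tumours came from female Sprague-Dawley rats, an outbred stock, given a single dose of 0.5 Gy carbon ions (290 MeV/u, 6 cm spread-out Bragg peak) to the whole body at 7 weeks of age. From 9 weeks of age the rats ate an AIN-76A diet with 23.5% corn oil. Their age when bought was 5 weeks, and the sample details used here list no age at tumour collection. All 4 tumours form 1 group that shares this treatment and diet, unirradiated controls and normal gland were not analysed here, and the labels do not say whether each tumour came from a different rat. The comparison the design allows is between individual tumours, which have no replicate arrays, so no p-value is given.

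Angiotensinogen, the product of Agt, is cut in steps, the last of them by angiotensin-converting enzyme, the product of Ace, to give angiotensin II. Angiotensin II acts on type 1 and type 2 receptors, and rats carry separate genes, Agtr1a and Agtr1b, for the type 1 receptor. Calcrl encodes a receptor that reaches the cell surface with a receptor activity-modifying protein (RAMP): with RAMP1 it binds calcitonin gene-related peptide, and with RAMP2 or RAMP3 it binds adrenomedullin. Both systems are best known for control of blood vessels.

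Levels are given as log2(signal + 16) of the deposited signal, and differences are on that scale, which understates the change of weak genes. A probe set was counted as expressed when its mean over the tumours was at or above 7.81 (a signal of 209), the median over all probe sets, called the filter level below. A gene was past a 2-fold range when its highest and lowest tumours differed by at least 1 and past a 4-fold range at 2. In the 2327 genes with 2 or more expressed probe sets, the 2 brightest were compared, and the difference between a pair of tumours disagreed between them by a median of 0.22 and by less than 0.74 in 95% of cases. This value is used as a measure of probe error, although it leaves out error in the RNA, labelling and array that both probe sets share and was not measured under the filter level. Steps between tumours smaller than 0.74 are therefore not told apart here.

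The arrays shared a trimmed mean signal of 500.1, and their medians lay between 201.8 and 221.9. Of 13 luminal epithelial markers, 11 were expressed, and none of 8 measured genes of adrenal gland, kidney and liver was. That holds for the mean of the tumours. The albumin gene Alb passed the filter level in tumour 2 alone, at 8.31, against 5.14 to 6.78 in the other tumours. The tumours were bulk tissue, in which fewer cells of a type and less RNA per cell cannot be told apart.

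Of the 9 members, 6 were expressed, and 5 of these 6 had a 2-fold range, against 12.4% of the 9401 expressed genes. A 4-fold range was found for 2 of the 6, Agtr1a and Ramp3, against 2.43% of expressed genes. The median range of the 6 was 1.44, and that of all expressed genes was 0.47. Without tumour 1 the counts were 2 and 1 of 5 members, and without tumour 2 the 4-fold count was 1. Without tumour 3 the 2-fold count was 3. Because the choice of members rested on these values, the counts describe the members and support nothing further. Agtr1b, Agtr2 and Calcrl lay under the filter level in all 4 tumours. Agt passed the filter although it reached that level in only 2 tumours, and Ramp1 and Ramp3 reached it in 3 each.

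**Figure D1:**
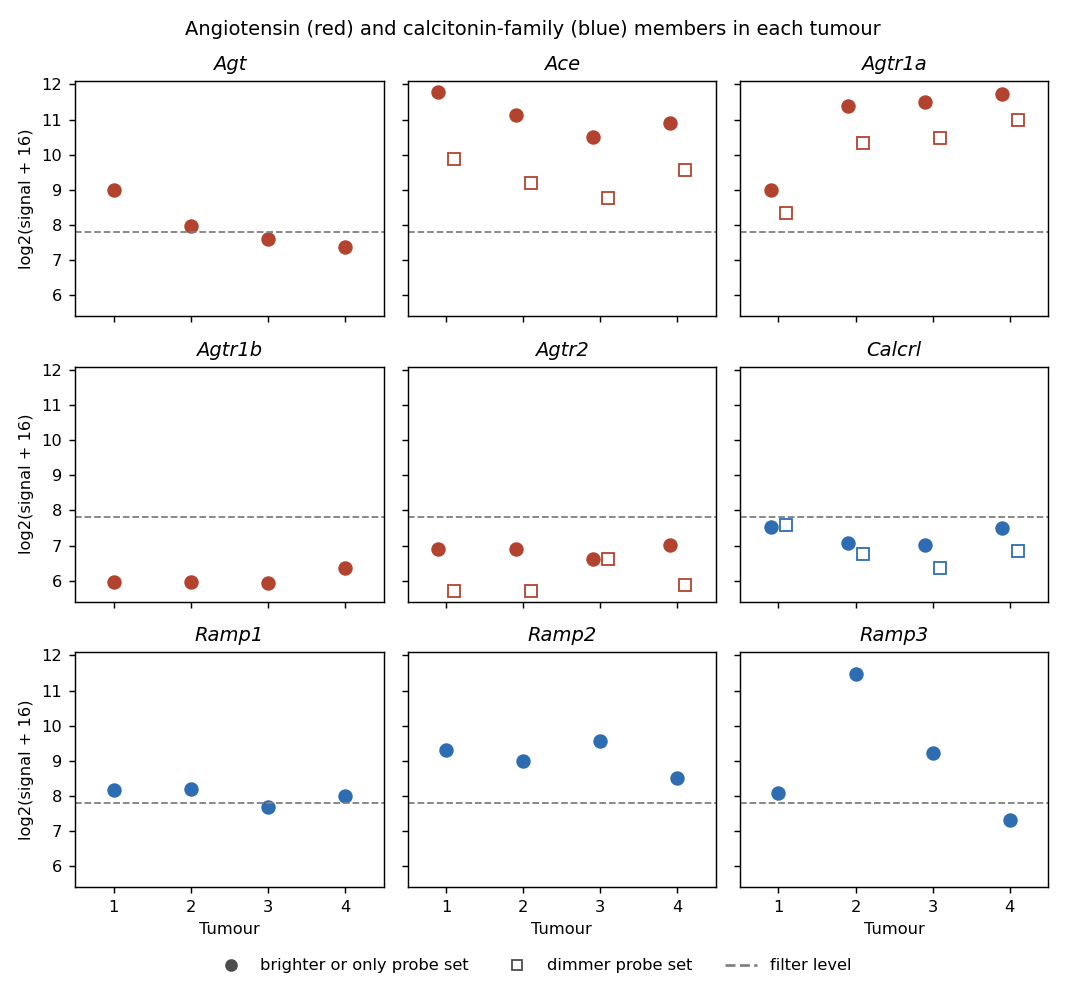
Level of each of the 9 members (vertical axis, log2(signal + 16)) in tumours 1 to 4 (horizontal axis), with filled circles for the brighter or only probe set, open squares for the dimmer one and a dashed line at the filter level of 7.81. Agtr1a sits at 8.99 in tumour 1, apart from 11.38 to 11.73 in the other tumours, and Ramp3 sits at 11.46 in tumour 2, apart from 7.33 to 9.21 in the other tumours.

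The precursor of the peptide, Agt, was highest in tumour 1. It had signals of 491, 237, 179 and 150.2 in tumours 1 to 4, or 8.99, 7.99, 7.61 and 7.38 log2 (7.99 ± 0.71, SD, n = 4). Tumour 1 lay 1.00 above tumour 2, the nearest, and the steps among tumours 2, 3 and 4 were 0.38 and 0.23, within probe error. Among expressed genes 1.17% were at least 2-fold higher in tumour 1 than in each other tumour. Tumours 3 and 4 were under the filter level for Agt. Without tumour 1 the range was 0.61 in place of 1.61, and Agt no longer reached the filter.

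Ace, which encodes the converting enzyme that also breaks down bradykinin, was highest in tumour 1 too and lowest in tumour 3. Its brighter probe set measured 11.79, 11.14, 10.52 and 10.89 in tumours 1 to 4 (11.09 ± 0.54, SD, n = 4), which correspond to signals of 3531, 2245, 1450 and 1879. The dimmer probe set measured 9.87, 9.19, 8.77 and 9.58. Both probe sets placed tumour 1 at the top and tumour 3 at the bottom, with ranges of 1.28 and 1.10, but they placed tumours 2 and 4 in opposite orders. No single step between neighbouring tumours exceeded probe error on either, so neighbours in the order are not told apart. Without tumour 1 the range of the brighter probe set was 0.63.

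Markers of macrophages, cells that can also carry the converting enzyme, had the same ends as Ace. Of 10 expressed macrophage genes (12 measured), 9 were highest in tumour 1 and 9 were lowest in tumour 3, against 28.1% and 21.1% of all expressed genes. The summed signal of the list was 20307, 11366, 6822 and 11363 in tumours 1 to 4. The complement gene C1qb measured 11.18, 10.14, 8.88 and 10.06, C1qa measured 12.01, 11.13, 10.04 and 11.07, and Aif1, a calcium-binding protein of macrophages, measured 10.20, 9.52, 8.09 and 8.99. Cd163 and Itgam were under the filter level in each tumour. For Agt the tumours other than tumour 1 lay within probe error of each other, so its lowest tumour is not told apart. The 9 expressed fibroblast genes were all lowest in tumour 4, against 25.1% of all expressed genes. Of these 9, 5 were highest in tumour 1. Basal and myoepithelial markers, given below, also had most genes highest in tumour 1 and lowest in tumour 3. The part of any of these cell types in the levels of Ace and Agt was not tested.

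Agtr1a, the main type 1 receptor gene of the rat outside the adrenal and pituitary glands, was low in tumour 1. Its brighter probe set had signals of 493, 2658, 2867 and 3385 in tumours 1 to 4, or 8.99, 11.38, 11.49 and 11.73 log2 (10.90 ± 1.28, SD, n = 4). Its dimmer probe set measured 8.34, 10.35, 10.47 and 10.99. On both, tumour 1 was lowest by a wide step, 2.39 on the brighter and 2.00 on the dimmer, and the order of all 4 tumours was the same. The ratio of highest to lowest signal was 6.87 and 6.52. The differences between tumours on the 2 probe sets disagreed by at most 0.39, within probe error. Tumours 2, 3 and 4 were separated by steps of 0.11 and 0.24 on the brighter probe set, also within it. The whole range of Agtr1a rested on tumour 1, since it was 0.35 without that tumour. Among expressed genes 1.02% were at least 2-fold lower in tumour 1 than in each other tumour.

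The sister gene Agtr1b was under the filter level in every tumour, at 5.96, 5.95, 5.93 and 6.37 (signals of 46.3, 46.0, 45.0 and 66.6). Its range of 0.44 is within probe error. It did not show the low value of Agtr1a in tumour 1, but at such a signal a difference may not be detectable. All 13 probe sets of the members carry the plain suffix that the array maker uses for probes designed to be specific to a transcript.

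Agtr2, the type 2 receptor gene, was under the filter level as well. Its brighter probe set measured 6.92, 6.89, 6.62 and 7.01, and its dimmer one 5.71, 5.71, 6.62 and 5.88. The probe sets disagreed on which tumour was highest, tumour 4 on the brighter and tumour 3 on the dimmer, and gave the same sign in 2 of 6 differences between tumours. No order of tumours can be given for Agtr2.

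The RefSeq sequences before the start of Agtr1a and Agtr1b are shown because they are sister genes for the same receptor type, and that of Ramp3 because its range was the widest of the members. Each runs for 250 bases up to the annotated start, 5′ to 3′ on the gene's strand, in assembly GRCr8. Capitals mark exact matches, on either strand, to 5 short motifs. The TATA box was searched as TATAAA. The box bound by nuclear factor Y was searched as CCAAT. The box bound by Sp1 and related factors, called the Sp1 box here, was searched as GGGCGG. A motif of the GATA family of factors, which was found in none of these 3 windows, was searched by the letters AGATAA. A nuclear receptor half-site that the oestrogen receptor can use was searched as AGGTCA. Agtr1a lies at chr17:34435433-34435682 on the minus strand, Agtr1b at chr2:104849263-104849512 on the minus strand and Ramp3 at chr14:85741064-85741313 on the plus strand.
Agtr1a: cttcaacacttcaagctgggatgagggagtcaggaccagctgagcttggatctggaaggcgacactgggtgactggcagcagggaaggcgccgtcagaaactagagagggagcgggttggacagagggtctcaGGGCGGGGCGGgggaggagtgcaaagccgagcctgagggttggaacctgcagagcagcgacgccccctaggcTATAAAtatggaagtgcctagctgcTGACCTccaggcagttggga
Agtr1b: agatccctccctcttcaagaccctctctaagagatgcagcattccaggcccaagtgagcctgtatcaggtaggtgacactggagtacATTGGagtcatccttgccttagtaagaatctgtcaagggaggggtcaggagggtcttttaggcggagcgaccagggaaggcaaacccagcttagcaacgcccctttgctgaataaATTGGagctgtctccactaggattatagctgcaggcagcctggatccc
Ramp3: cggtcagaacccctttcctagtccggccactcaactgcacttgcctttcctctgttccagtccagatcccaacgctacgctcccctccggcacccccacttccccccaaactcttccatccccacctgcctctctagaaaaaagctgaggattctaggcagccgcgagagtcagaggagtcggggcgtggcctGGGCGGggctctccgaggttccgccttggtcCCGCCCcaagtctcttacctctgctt

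The Agtr1a window held a TATA box beginning 45 bases before the start, 2 Sp1 boxes that share a base, and a half-site, written as its reverse complement, 20 bases before the start. The Agtr1b window held 2 CCAAT boxes, both as the reverse complement, and none of the other motifs. The Ramp3 window held 2 Sp1 boxes and none of the others. Among 27457 windows of the same length, 13.1% held the TATA box, 34.3% the CCAAT box, 32.4% the Sp1 box, 10.0% the GATA motif and 13.7% the half-site. CG pairs numbered 9 in Agtr1a, 3 in Agtr1b and 13 in Ramp3, and the median window had 6. Windows were matched for 7 of the 9 members, and Agt and Ramp2 had none in the table. Such letter matches are a description and were not tied to the tumours' levels.

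Luminal epithelial markers were also low in tumour 1. Of 11 expressed luminal genes, 10 were lowest there, against 36.2% of all expressed genes, and the summed signal of the 13 measured was 35116, 62001, 72082 and 63143 in tumours 1 to 4. Prlr, the prolactin receptor, measured 10.31, 12.89, 13.35 and 12.70. Cldn3, a tight-junction protein, measured 9.22, 11.97, 11.80 and 11.61, and the keratin gene Krt7 measured 9.48, 10.65, 10.57 and 11.23. The oestrogen receptor gene Esr1 was under the filter level on average, at 4.92, 6.91, 7.06 and 8.24. The median luminal gene deviated from its own 4-tumour mean by -0.57 in tumour 1, and Agtr1a by -1.91. The part of the epithelial content in the level of Agtr1a was not tested.

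Markers of pericytes and smooth muscle, vessel cells in which Agtr1a is well known, were divided in tumour 1. Of 8 expressed genes, 4 were highest in tumour 1, against 28.1% of all expressed genes, and 3 were lowest there, close to the 36.2% of all expressed genes. Myh11, a smooth muscle myosin, measured 9.91, 10.60, 9.26 and 11.50, the receptor gene Pdgfrb measured 9.69, 8.00, 8.79 and 7.71, and the pericyte gene Rgs5 measured 9.75, 8.45, 9.21 and 9.46. The summed signal lay between 16568 in tumour 3 and 20950.4 in tumour 4. In bulk tissue, signals of this list cannot be assigned to vessel cells rather than to other contractile cells. Basal and myoepithelial markers had 6 of 9 expressed genes highest in tumour 1 and 6 lowest in tumour 3, against 28.1% and 21.1% of all expressed genes, with a summed signal of 32817, 25121, 19138 and 30640.4. Among them the keratin gene Krt14 measured 12.39, 11.34, 8.24 and 11.45.

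**Figure D2:**
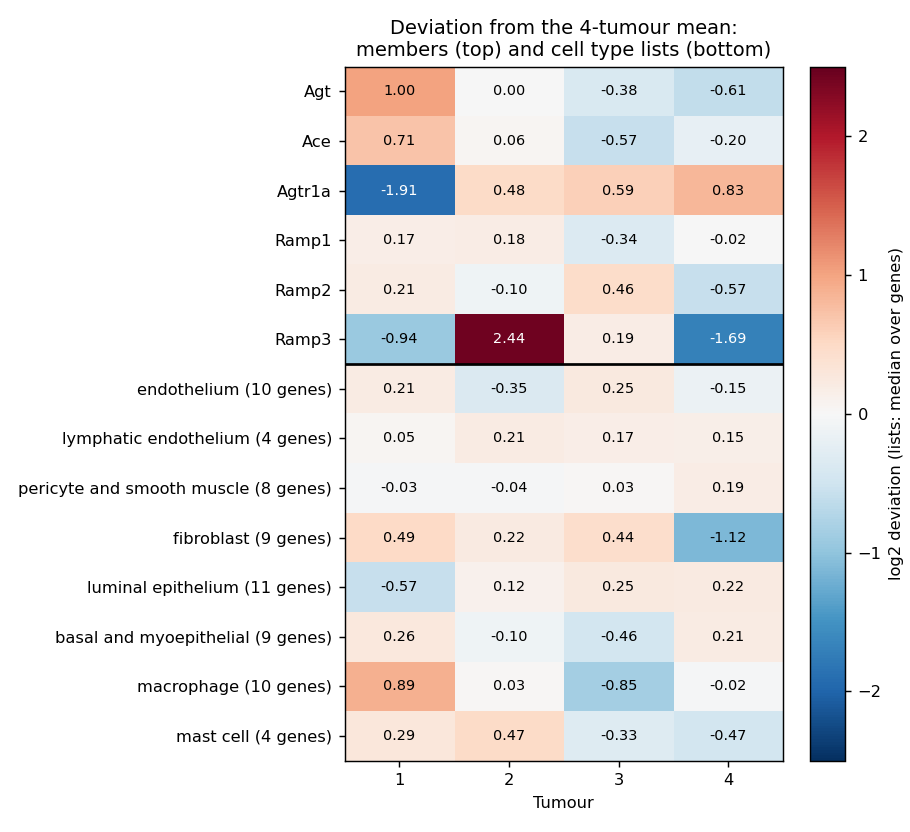
Deviation of each expressed member (upper rows) and of the median gene of each cell type list with at least 4 expressed genes (lower rows) from its own mean over tumours 1 to 4 (columns), on the log2 scale, with red for above and blue for below. Agtr1a is at -1.91 in tumour 1, where the luminal list is at -0.57 and the macrophage list at 0.89, and Ramp3 is at 2.44 in tumour 2.

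Among the calcitonin-family members, the receptor gene Calcrl itself gave little signal. Its brighter probe set measured 7.54, 7.06, 7.02 and 7.51 (7.28 ± 0.28, SD, n = 4) and its dimmer one 7.59, 6.77, 6.35 and 6.84, all under the filter level. Both probe sets gave the same order, tumour 1, then 4, 2 and 3, with ranges of 0.52 and 1.24. On the brighter probe set no step exceeded probe error, and on the dimmer only that from tumour 1 to tumour 4 did, barely, at 0.75. Probe error was not measured at such signals.

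Ramp1, the partner that makes a receptor for calcitonin gene-related peptide, varied least of the expressed members. It measured 8.18, 8.19, 7.67 and 7.99 in tumours 1 to 4 (8.01 ± 0.24, SD, n = 4), with signals of 274, 275, 188 and 238. The range of 0.51 was within probe error, and 43.8% of expressed genes had a range at least as large. Tumour 3, the lowest, was under the filter level.

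Ramp2, a partner for adrenomedullin needed for the integrity of blood vessels in mice, was highest in tumour 3 and lowest in tumour 4. It measured 9.30, 9.00, 9.56 and 8.52 (9.09 ± 0.45, SD, n = 4), from signals of 615, 494, 738 and 351. The range of 1.04 just passed 2-fold, and 11.6% of expressed genes had a range as large. It came to 0.56 without tumour 4 and to 0.95 with a pseudocount of 64. The steps of 0.26, 0.31 and 0.47 were each within probe error, so neighbours in the order are not told apart.

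Endothelial markers were set beside Ramp2 because endothelium is its best known site. Of 10 expressed endothelial genes, 5 were highest in tumour 3 and 3 lowest in tumour 4, against 24.5% and 25.1% of all expressed genes, while 5 were lowest in tumour 2, against 17.6%. Emcn, an endothelial mucin, measured 8.68, 8.05, 9.04 and 7.87, and Tek, the angiopoietin receptor, measured 8.51, 8.07, 8.58 and 7.45, both in the tumour order of Ramp2. As for Ramp2, no step between neighbouring tumours exceeded probe error in either gene, so that order is not resolved. Flt1, a receptor for vascular endothelial growth factor, measured 8.87, 9.95, 9.14 and 9.05, with another order. The summed signal of the 12 measured was 5357, 4262, 5312 and 4405, and Cldn5 and Pecam1 were under the filter level on average. All 9 expressed fibroblast genes were lowest in tumour 4, with the collagen gene Col1a1 at 12.42, 12.65, 13.25 and 10.98 and a summed signal of 50970.2, 39682, 48219 and 15867. The growth factor receptor gene Pdgfra measured 11.90, 10.02, 10.74 and 8.54. Of 4 expressed lymphatic endothelial genes, 1 was highest in each tumour. The part of these cell types in the level of Ramp2 was not tested.

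Ramp3, the other partner for adrenomedullin, had the widest range of all members, and it was highest in tumour 2. It had signals of 256, 2801, 578 and 145 in tumours 1 to 4, or 8.09, 11.46, 9.21 and 7.33 log2 (9.02 ± 1.80, SD, n = 4). Tumour 2 stood 2.25 above tumour 3, the next, and tumour 3 stood 1.13 above tumour 1, steps that exceeded probe error. The step of 0.76 from tumour 1 to tumour 4 was only just past it. That step ends under the filter level, where probe error was not measured, so tumours 1 and 4 are not told apart. Highest over lowest signal was a ratio of 19.3, with tumour 4 under the filter level, so that the size is uncertain at the lower end. The range was 4.13, which ranked 18 among 9401 expressed genes, and it was 1.89 without tumour 2. Among expressed genes 0.255% were at least 2-fold higher in tumour 2 than in each other tumour. Only 1 probe set measured Ramp3, so no second probe set checks this value.

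In tumour 2, where Ramp3 deviated by 2.44 from its own mean, Ramp1 deviated by 0.18, Ramp2 by -0.10 and Calcrl by -0.22. In tumour 4 the deviations were -1.69 for Ramp3, -0.02 for Ramp1, -0.57 for Ramp2 and 0.23 for Calcrl. The RAMP genes thus differed unequally between tumours, while levels of different probe sets cannot be set against each other. Mast cell and adipocyte genes were among those highest in tumour 2, with 3 of 4 and 2 of 3 expressed genes, against 26.4% of all expressed genes. Mcpt1l1, a mast cell protease, measured 8.18, 9.55, 7.58 and 6.43, and the adipokine gene Cfd measured 8.18, 9.23, 7.95 and 7.73. For the other genes in these counts, tumour 2 lay within probe error of the next tumour. The remaining expressed gene of each list had its highest value in another tumour, also within probe error of the next. The receptor gene Kit of the mast cell list measured 11.38, 10.91, 10.15 and 11.13, highest in tumour 1. Lipe of the adipocyte list measured 8.89, 9.38, 9.43 and 9.32, highest in tumour 3. The summed signals were 4180, 4320.4, 2136 and 2903 for 8 mast cell genes and 3359, 4308, 2916 and 2943 for 9 adipocyte genes, of which 4 and 6 were under the filter level. Kit was the brightest mast cell gene in every tumour and the lipase gene Lpl the brightest adipocyte gene. Each weighs most in its sum, so the sums say little about the other genes. The part of these cells in the level of Ramp3 was not tested.

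**Figure D3:**
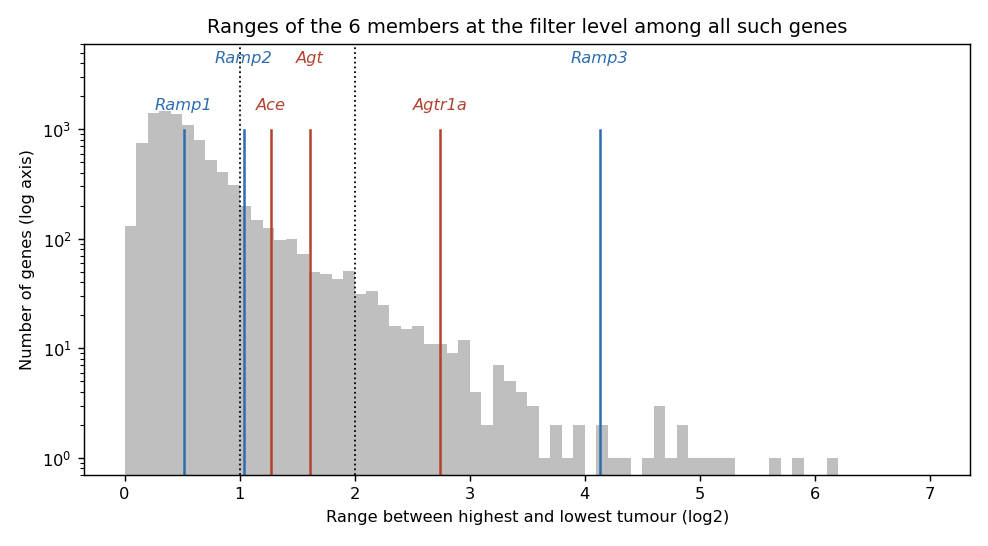
Number of expressed genes (vertical log axis) by range between the highest and the lowest tumour (horizontal axis, log2), with lines at the 6 expressed members and dotted lines at the 2-fold and 4-fold range. Ramp1, at 0.51, lies near the median of 0.47, and Agtr1a and Ramp3 lie at 2.74 and 4.13 in the tail that holds 2.43% of genes.

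For each expressed member past a 2-fold range, the 3 genes with the most similar deviations over the 4 tumours were found by the root mean square difference. With 4 tumours many genes come close to any pattern by coincidence, and the lists are descriptive. For Agtr1a they were Wfdc2, a secreted protease inhibitor (9.31, 11.90, 12.04 and 12.02 in tumours 1 to 4, difference 0.11), Pls1 (0.16) and Gse1 (0.19). For Ramp3 the nearest was Aqp5, an aquaporin, at 9.24, 12.29, 11.20 and 7.98, but the difference was 0.51, and Fam111a and Dgkh followed at 0.57 and 0.61. For Ramp2 they were Retsat (0.04), Lzts3 (0.05) and Zeb1 (0.07). For Agt they were Slc39a8 (0.08), Aacs (0.09) and Rarres2 (0.09), and for Ace Ppif (0.04), Psme4 (0.05) and Cpox (0.05).

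Other genes of the angiotensin system had ranges close to those of all expressed genes. Of 20 listed, 16 were measured and 11 expressed, and 2 of the 11 had a 2-fold range and 0 a 4-fold range, against 12.4% and 2.43% of expressed genes. Their median range was 0.41, and that of all expressed genes was 0.47. Anpep, an aminopeptidase that trims angiotensin peptides, measured 9.63, 8.60, 8.11 and 8.24, highest in tumour 1 and lowest in tumour 3 like Ace. For neither gene is tumour 3 told apart from the next lowest tumour. Cpa3, a mast cell carboxypeptidase that can act on angiotensin I, measured 8.51, 8.86, 8.14 and 7.86. The peptidase genes Thop1 and Enpep had ranges of 0.59 and 0.56, within probe error. Singled out after their values were seen, Atp6ap2, which encodes an accessory subunit of the vacuolar proton pump, lay between 10.88 and 10.94, and Agtrap, which encodes a protein that promotes internalisation of the type 1 receptor, between 10.32 and 10.49. The angiotensin-(1-7) receptor gene Mas1 and the mast cell chymase gene Cma1 were under the filter level on average.

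The ligands of the calcitonin family gave little signal. Of 8 listed genes, 7 were measured, and only Crcp, which encodes a protein that couples Calcrl to its signalling, was expressed, at 9.78, 9.50, 9.32 and 9.74. Adm, adrenomedullin, measured 7.18, 6.05, 5.95 and 6.59, and Calca, the gene of calcitonin and its alpha gene-related peptide, 6.58, 6.10, 7.02 and 7.56. Calcb, which encodes the beta form, measured 7.06 in tumour 1 and 4.44 to 4.56 in the other tumours. Calcr, Iapp and Ackr3 were likewise under the filter level.

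Most signalling partners of these receptors were expressed. Of 20 expressed genes (23 measured), 1 had a 2-fold range, which was also past 4-fold, against 12.4% and 2.43% of all expressed genes, and the median range was 0.58, against 0.47 over all expressed genes. That gene was Rgs4, a regulator that shortens signalling through the G proteins of the type 1 receptor, at 8.11, 7.12, 7.98 and 9.67, highest in tumour 4. The arrestin gene Arrb1 measured 8.53, 8.91, 8.30 and 9.29, and the phospholipase genes Plcb1 and Plcb4 had ranges of 0.99 and 0.77.

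Of 7 expressed genes known to respond to angiotensin II, 3 had a 2-fold range, against 12.4% of expressed genes, and they did not share an order. Ccn2, a matricellular growth factor, measured 12.42, 10.59, 11.52 and 11.46, highest in tumour 1, where Agtr1a was lowest. Fos, an immediate early transcription factor, measured 9.48, 10.61, 11.18 and 11.20, lowest in tumour 1. Vegfa, the vascular endothelial growth factor, measured 10.77, 10.45, 10.68 and 11.69, and Rcan1, a calcineurin regulator, had a range of 0.82. Many stimuli move these genes, and none was tied to angiotensin here.

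Of 16 measured genes of other vasoactive peptide systems, 3 were expressed. Vipr1, a receptor for vasoactive intestinal peptide, measured 10.72, 10.66, 9.60 and 10.57, and its range of 1.12 was the only 2-fold one of the 3. Npr2, a natriuretic peptide receptor, and Ece1, which activates endothelin, had ranges of 0.91 and 0.61.

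**Figure D4:**
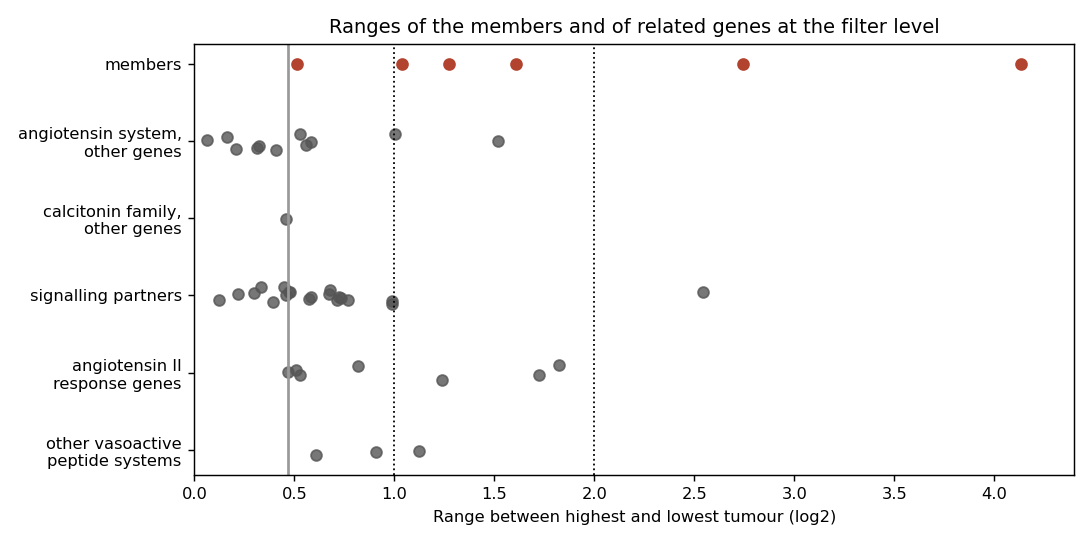
Range between the highest and the lowest tumour (horizontal axis, log2) for each expressed gene (points) of the members and of 5 related gene lists (rows), with the median of all expressed genes as a grey line and dotted lines at the 2-fold and 4-fold range. The other angiotensin system genes reach 1.52, and Rgs4, at 2.54, is the only point of these 5 lists past a 4-fold range.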

How the data were processed

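Transcripts of 4 mammary cancers, 1 group by the sample labels, were measured on 1 array each. Per the labels' protocols, 8 µg of total RNA was primed with oligo-dT carrying a T7 promoter and transcribed to biotin-labelled cRNA, which favours 3' ends. The deposited table holds linear intensity for 31099 probe sets; how it was scaled and background-corrected, and with which software, the sources used here do not state, and no detection call was used. Intensities were used as deposited, as log2(value + 16), without a further shift, because the arrays already shared a trimmed mean. Of the probe sets, 20826 named 1 gene in the platform annotation, 436 named several and were left out, and 9831 had no entry. The brightest probe set by mean stood for a gene. Ranges and gaps were computed with pandas 2.3.3 and NumPy 2.4.6 in Python 3.11.15. In simulated data with little noise, planted differences larger than the ranges called were recovered. This checks the arithmetic only, since the simulated arrays varied less than the tumours. The files name no build, so the only coordinates given are those of the RefSeq promoter windows, in that table's assembly, GRCr8.

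The members and the 15 gene lists (186 genes, 109 expressed, 18 with no named probe set) were chosen with earlier results of these data known. The text names all members, the 3 genes most like each expressed member with a 2-fold range, the 4 expressed genes of largest range in each pathway list, and up to 3 in each cell type list. List genes under the filter level could be named as such. Alternatives were pseudocounts of 1 and 64, a median shift, quantile normalization, averaged probe sets, other filters, and leaving out each tumour. The number of arrays limits the precision.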

Additional observations from a re-analysis of the deposited data

Results flagged for a closer look

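The value of 1 tumour stood far from the others on 2 of the 13 member probe sets, by the gap to the nearest tumour as a share of the whole range (above Dixon's 95% limit for 4 samples). Chance alone gives such a value in about 1 in 20 groups, and 6.45% of all 31042 probe sets other than controls had one. For Agtr1a, whose signals led to the choice of the families, this is a description only. On the brighter probe set of Agtr1a it was tumour 1, at 8.99 log2, with 87.3% of the range as its gap. The dimmer probe set of Agtr1a also had tumour 1 lowest, at 8.34, with a share of 75.7%, which is below the limit. On the Agtr1b probe set it was tumour 4, at 6.37, with a share of 93.1%. The whole range of Agtr1b was 0.44 and all its values were under the filter level.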

How the results depend on the processing

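Of 181 values recomputed under the alternatives, 160 stayed within the SD between tumours of the value given (counts and shares within 1.5 times), and 21 moved further. Part of the 160 could not move. Averaging changes nothing for a member with 1 probe set, and leaving out a tumour that is neither highest nor lowest leaves a range as it was. Gaps were not recomputed under other filters or with a tumour left out. No gap of at least 1 changed direction, and of the smaller gaps that of Agtr2 in tumour 3, at -0.28, did. With its probe sets averaged, tumour 3 was the highest. The recomputed value of 0.31 is its distance to the lowest tumour, the whole range, and not to the nearest tumour. The 75th percentile as filter kept 2 members, Agtr1a and Ace, of which 2 had a 2-fold and 1 a 4-fold range. Without a filter the shares of all genes past these ranges were 21.1% and 3.99%, and 5 and 2 of the 9 members were past them. Leaving out 1 tumour gave 2 to 5 members past a 2-fold range and 1 to 2 past a 4-fold range, beside 5.75% to 10.2% and 0.969% to 2.12% of all genes. The fewest 2-fold ranges came without tumour 1, and 3 members were past it without tumour 3. The 4-fold count was 1 without tumour 1, where Agtr1a dropped to 0.35, and 1 without tumour 2, where Ramp3 dropped to 1.89. The range of Calcrl was 0.88 with its probe sets averaged. Without tumour 3 the ranges of Agtr2 and Ramp1 were 0.12 and 0.19, and without tumour 4 that of Agtr1b was 0.03. A pseudocount of 64 left 4 members past a 2-fold range, and the median shift, quantile normalization, averaged probe sets and a pseudocount of 1 each gave 5 and 2. No paired analysis was possible because there is only 1 group. Signals near the filter level limit Agt, Ramp1 and the lower end of Ramp3.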

Other observations

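Several peptide system genes that were under the filter level on average had a wide range, which is uncertain at such signals. Cma1, the mast cell chymase that can form angiotensin II, measured 7.82, 8.16, 7.05 and 4.67 in tumours 1 to 4. Npr3, the natriuretic peptide clearance receptor, measured 8.09 in tumour 1 and 4.71 to 5.07 in the other tumours. Nppb, which encodes brain natriuretic peptide, measured 6.24, 7.35, 5.87 and 4.89. Ccl2, a monocyte chemokine among the genes known to respond to angiotensin II, measured 8.03 in each of tumours 1 and 2, 5.05 in tumour 3 and 6.98 in tumour 4. The lymphatic chemokine gene Ccl21 measured 9.44, 8.04, 7.57 and 5.81.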
